A study of Mus musculus with 8 samples.

Results

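The 36 genes described here are immediate early genes and genes of the dissociation response, a set of transcripts that cells make within minutes of a stimulus and also while a tissue is being digested. They were taken from a given list by gene symbol, and all 36 were found among the 25247 genes of the count table. The measurements were bulk RNA sequencing of Langerhans cells, the antigen-presenting cells that reside in the epidermis, isolated from the ears of C57BL/6 mice. The series compared wild-type (WT) mice with mice labelled EZH2 -/-, called knockout (KO) here, with 4 libraries of each genotype. Ezh2 is the histone H3 lysine 27 methyltransferase of Polycomb repressive complex 2. Every library, WT or KO, came from epidermis that was separated with dispase, digested with collagenase IV and DNase I at body temperature, and sorted for live cells that carried CD45, MHCII, CD24 and EpCAM but neither Ly6G nor CD103. The way the deletion was made, the deleted part of the gene, the age of the mice and any pooling of animals are not given in the sources used here, nor whether the libraries came from separate animals. The p-values therefore measure only how far these libraries vary, and that variation may be technical.

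Immediate early genes are switched on without new protein synthesis. Growth factor, stress and calcium signals pass through MAP kinases to factors already present in the cell, chiefly serum response factor with its ternary complex partners and the cyclic AMP response element binding protein, which sit at the promoters of these genes. Many of the products are transcription factors (the Fos, Jun, Egr and Nr4a families). Others shut the response down again: the Dusp phosphatases inactivate MAP kinases, and the Zfp36 proteins bind AU-rich elements and speed the decay of short-lived messenger RNAs. In cells freed from skin by enzymes the same genes are known to be induced during the digestion, so their level in a sorted cell can carry both its state in the tissue and its handling.

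The genotype of 4 of the 8 libraries is disputed between labels. The library codes written in titles and those written in descriptions give the same genotype for RMN030 and RMN031 (WT) and for RMN038 and RMN039 (KO). They give opposite genotypes for RMN032 and RMN033 (KO by title, WT by description) and for RMN036 and RMN037 (WT by title, KO by description). The numbers of the codes leave a gap, with 30 to 33 called the earlier and 36 to 39 the later run here, and no label says what parts them. By title each genotype has 2 libraries in each run. By description, and among the 4 undisputed libraries, genotype coincides with the run, and genotype and run cannot be told apart. All readings are given side by side.

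Library totals ranged from 11051402 to 18966195 counts. Ezh2, the targeted gene, was at 15.7, 22.4, 19.0 and 17.6 CPM (counts scaled to the library total) in title WT libraries RMN030, RMN031, RMN036 and RMN037. It was at 15.2, 14.9, 12.7 and 10.5 CPM in title KO libraries RMN032, RMN033, RMN038 and RMN039. Every title KO library lay below every title WT library, as was so for 1.53% of all genes tested. By description the groups overlapped, at 14.9 to 22.4 CPM in WT (the earlier libraries) and 10.5 to 19.0 CPM in KO (the later ones). Its difference missed the threshold in each of the fits described here (by title log2 -0.49, SE 0.18, edgeR adjusted p = 0.998). What this split means for the labels was not tested. The counts cover the whole gene, so that residual transcript does not test the deletion. Markers of the labelled cell type were high: Cd207 (langerin) was at 9706 to 11963 CPM and Epcam at 558 to 672 CPM, and 0 of 10 Langerhans cell markers differed between the runs. Keratinocyte transcripts were abundant too, with Krt14 at 6463 to 8876 CPM, so the levels below are not those of Langerhans cells alone. RMN030 and RMN031 stood apart by T cell transcripts, with 15 markers summing to 358 and 334 CPM against 45.5 to 61.7 CPM elsewhere, where Cd8b1 was at 0. The later libraries held more mitochondrially encoded transcripts (3.76 to 4.03% of counts against 1.02 to 1.87%) and more red blood cell transcripts (5 markers summing to 580 to 1355 CPM against 122 to 226 CPM). Markers of mast cells (46.2 to 65.6 against 31.1 to 43.3 CPM), macrophages (514 to 568 against 363 to 464 CPM) and fibroblasts with endothelium (122 to 200.1 against 65.0 CPM or less) were also higher there, and keratinocyte markers ranged from 14725 to 18976 CPM over both runs. In the comparison of the runs 5 of 5 red blood cell, 4 of 5 mast cell, 2 of 5 macrophage and 4 of 7 fibroblast and endothelial markers tested were higher, 0 of 10 T cell markers passed, and 2 of 10 keratinocyte markers were higher and 2 lower. Of all genes tested 1.4% were called higher and 0.694% lower in that comparison. The part of these other cells and transcripts in the results below was not tested.

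The promoters of 6 of the 9 genes that differed between the runs are shown for the elements that this class of gene is known for. Those of Junb, Dusp6 and Gadd45a are not shown. Junb held TATAAA, and Dusp6 held none of the elements named below. Each line gives the 250 bases before the RefSeq transcription start (build GRCm38.p6), read 5′ to 3′ on the gene's own strand, from these regions: Fos chr12:85473640-85473889, plus strand, Btg2 chr1:134079156-134079405, minus strand, Ccn1 chr3:145649986-145650235, minus strand, Zfp36 chr7:28379229-28379478, minus strand, Dusp5 chr19:53528895-53529144, plus strand, Nr4a1 chr15:101266596-101266845, plus strand. Capitals mark TGACGT on either strand (the core of the cyclic AMP response element), the CArG box of serum response factor on either strand, and TATAAA on the printed strand.
Fos: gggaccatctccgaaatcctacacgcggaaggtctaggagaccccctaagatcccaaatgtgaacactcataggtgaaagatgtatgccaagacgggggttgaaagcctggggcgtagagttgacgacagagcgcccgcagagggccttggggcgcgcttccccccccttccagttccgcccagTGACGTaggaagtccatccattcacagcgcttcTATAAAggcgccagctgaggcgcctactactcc
Btg2: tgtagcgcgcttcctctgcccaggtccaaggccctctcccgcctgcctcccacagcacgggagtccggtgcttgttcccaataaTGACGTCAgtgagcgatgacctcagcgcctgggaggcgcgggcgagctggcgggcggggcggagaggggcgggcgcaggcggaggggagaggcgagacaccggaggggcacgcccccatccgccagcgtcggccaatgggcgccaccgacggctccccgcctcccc
Ccn1: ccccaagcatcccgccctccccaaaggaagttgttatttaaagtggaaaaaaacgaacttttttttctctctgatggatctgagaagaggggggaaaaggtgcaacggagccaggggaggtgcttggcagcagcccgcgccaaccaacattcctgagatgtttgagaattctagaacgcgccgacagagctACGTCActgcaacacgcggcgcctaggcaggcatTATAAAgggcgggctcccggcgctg
Zfp36: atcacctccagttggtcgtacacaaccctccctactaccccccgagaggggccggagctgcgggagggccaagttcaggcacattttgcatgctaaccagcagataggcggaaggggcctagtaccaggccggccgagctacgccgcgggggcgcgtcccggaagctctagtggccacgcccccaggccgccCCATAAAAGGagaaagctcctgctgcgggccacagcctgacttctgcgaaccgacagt
Dusp5: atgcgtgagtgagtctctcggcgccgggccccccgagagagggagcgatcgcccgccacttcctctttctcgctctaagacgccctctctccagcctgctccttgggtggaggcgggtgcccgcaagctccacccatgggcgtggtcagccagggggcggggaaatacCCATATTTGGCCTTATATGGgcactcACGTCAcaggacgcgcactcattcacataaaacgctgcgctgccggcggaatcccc
Nr4a1: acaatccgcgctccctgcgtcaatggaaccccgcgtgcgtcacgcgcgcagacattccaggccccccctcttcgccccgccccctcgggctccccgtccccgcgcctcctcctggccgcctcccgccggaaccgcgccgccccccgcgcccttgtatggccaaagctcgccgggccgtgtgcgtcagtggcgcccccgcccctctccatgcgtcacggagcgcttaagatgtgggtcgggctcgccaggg
Of the 36 genes 29 have an entry in the RefSeq promoter table, whose windows run from 250 bases before to 50 after the start. In these windows TGACGT was found on either strand in 12 of 29 genes (41.4%), against 8.37% of all 27025 genes of the table. Its full palindrome TGACGTCA, which contains that core, was found in Btg2, Dusp1, Maff and Ppp1r15a (13.8% against 2.03%). A CArG box, searched by its name on either strand, was found in Dusp5, Egr2 and Zfp36 (10.3% against 1.81%), and the Dusp5 promoter carries a pair of them side by side, shortly before the cyclic AMP element. TATAAA was found on the gene's strand in 8 of 29 genes (27.6% against 9.77%). The AP-1 site, TGA and TCA with any 1 base between them, was found in Csrnp1 and Zfp36l1 (6.90% against 8.97%), the Egr site GCGTGGGCG in Maff (3.45% against 0.707%) and the Nr4a site AAAGGTCA in 0 of 29 genes (1.70% of all genes), all on either strand. These are matches of letters in a window, and the Nr4a1 promoter held none of the capitalised elements. Genes with and without matches stood among those that differed between the runs.

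Levels per transcript length showed that many of the 36 genes were strongly expressed in these sorted cells. In TPM (counts divided by exonic length and then scaled to a fixed total per library) 5 of the 36 ranked among the first 100 of all genes by mean level, and 16 among the first 300. Junb ranked 46 (mean 2145 TPM), the phosphatase gene Dusp1 58 (1851 TPM), Fos 60 (1835 TPM), the stress-induced repressor gene Atf3 64 (1740 TPM) and Zfp36 74 (1557 TPM). At the other end Egr3 ranked 12162 (2.47 TPM) and Jund 6230 (14.3 TPM), although Jund lies antisense to Gm11175 over 52.6% of its exonic bases. All 36 genes passed the filter on low counts in every fit. The smallest count was 26, for Egr3, and the next smallest 71, for Jund.

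**Figure D1:**
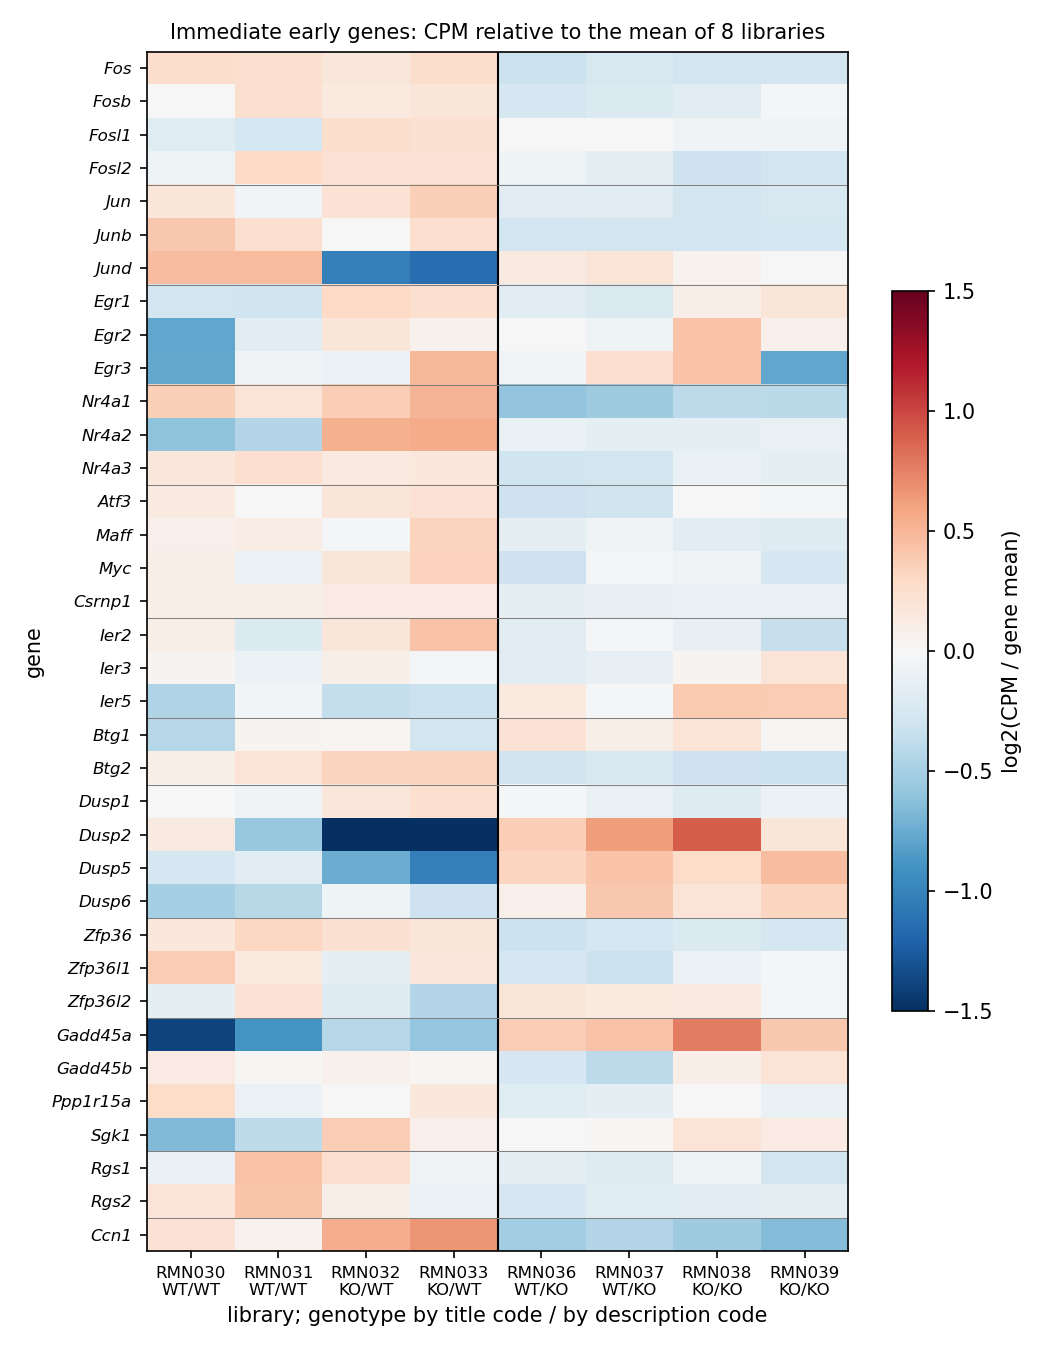
Level of each of the 36 genes in each library, as log2 of CPM over the gene's mean across 8 libraries (the colour scale is capped, and Dusp2 in RMN032 and RMN033 lies beyond it). Columns are libraries with genotype by title and by description code, the vertical line parts the earlier from the later codes, and horizontal lines part gene families; Fos, Nr4a1, Zfp36 and Ccn1 change colour at the vertical line, Egr1 between title genotypes.

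Between the earlier and the later libraries the strongest shared feature was a lower level of Fos, Junb, Nr4a1, Btg2, Zfp36 and Ccn1 in the later ones, by 1.36- to 1.82-fold, and a higher level of the phosphatase genes Dusp5 and Dusp6 and of the growth arrest gene Gadd45a, by 1.53- to 2.55-fold. These 9 of 36 genes passed the threshold of 0.05 in an edgeR quasi-likelihood fit of the run with title-code genotype as a covariate, with p-values adjusted by the Benjamini-Hochberg method over 15272 genes (the adjusted p throughout). Among all genes tested 0.694% were called lower and 1.4% higher. By description code, which splits the same 8 libraries in the same way, the fit called the same 9 genes, 9 shared, against 0.595% of all genes called lower and 1.43% higher. The median log2 difference (later minus earlier) was -0.17 over the 36 genes and -0.01 over all genes, with 23 of 36 and 52.0% of all genes below 0. With other scalings 22 of 36 (RLE size factors) or 25 of 36 (library totals only) were below 0. The 36 genes together took 2.59 to 2.73% of counts in the earlier libraries and 2.09 to 2.19% in the later ones, without overlap. Less RNA of these genes per cell and fewer cells that carry it cannot be told apart in bulk libraries.

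Without any test, the levels of 12 of 36 genes were lower in all 4 later libraries than in all 4 earlier ones, where 5.09% of all genes tested were, and 5 of 36 were higher in all 4, where 3.74% were. The lower ones were Fos, Fosb, Jun, Junb, Nr4a1, Nr4a3, Maff, Csrnp1, Btg2, Zfp36, Rgs2 and Ccn1. The higher ones were Ier5, Dusp2, Dusp5, Dusp6 and Gadd45a. Of the sum of squares of log2(CPM + 0.5) over the 8 libraries, the run took a median of 55.9% over the 36 genes and 13.2% over all genes tested. The share within the pairs of libraries that have the same run and title genotype had a median of 8.77% and 49.5% over the same sets, and as parts of a fixed total the shares say nothing of the absolute spread. The run was the largest share for 24 of 36 genes, title genotype for 5, the product of both for 3 and differences within the pairs for 4. The same count over all genes is not given here. The set of all genes was not matched for level, and 16 of the 36 genes ranked among the first 300 by TPM. How far the contrasts with all genes go with level was not tested.

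**Figure D2:**
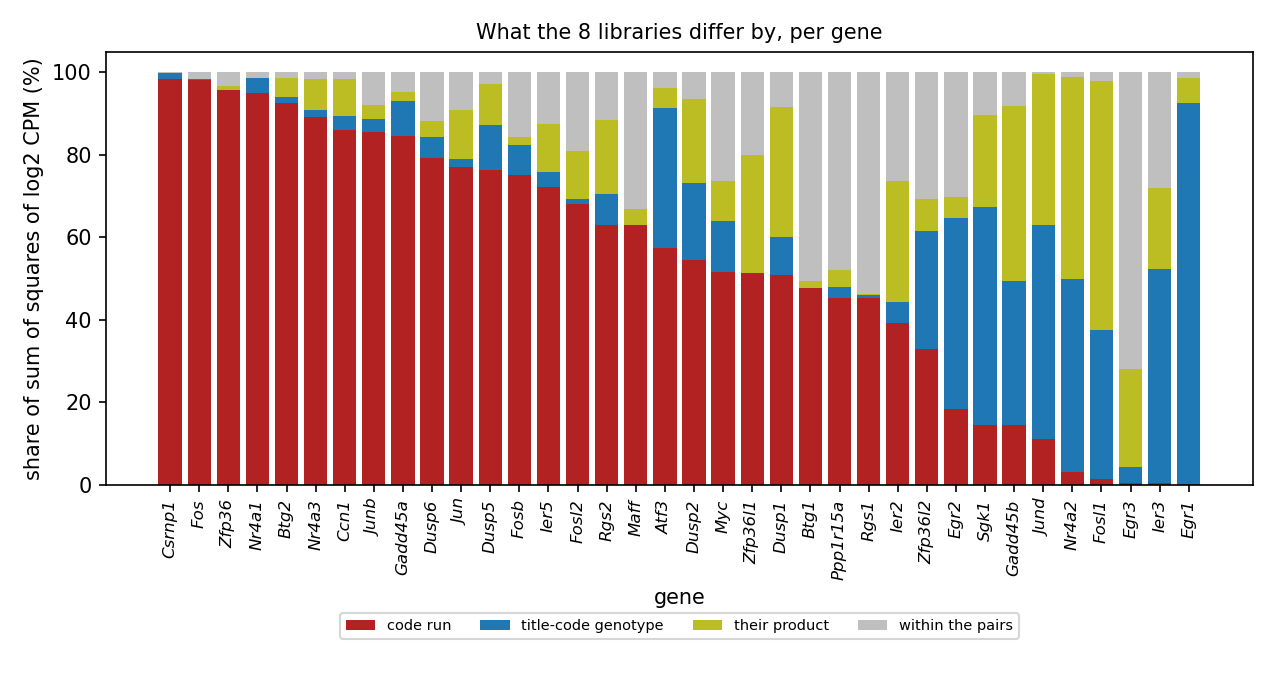
Share (%) of the sum of squares of log2(CPM + 0.5) over 8 libraries for each of the 36 genes that goes with code run, title-code genotype, their product, or differences within pairs of libraries. Csrnp1, Fos and Zfp36 are almost wholly run (over 95%), Egr1 is 92.4% title genotype, and Nr4a2 and Jund are divided between genotype and product.

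In the AP-1 family, whose Fos and Jun proteins pair to bind DNA, Fos (ENSMUSG00000021250.12, GRCm38 chromosome 12, 85473890 to 85477273, plus strand) was at 1907, 1873, 1783 and 1907 CPM in RMN030, RMN031, RMN032 and RMN033 and at 1272, 1350, 1299 and 1310 CPM in RMN036, RMN037, RMN038 and RMN039. Every earlier library lay above every later one, and within a run WT and KO by title were interleaved. Its mean was 1868 ± 58.5 CPM in the earlier and 1308 ± 32.2 CPM in the later libraries (SD, n = 4 each), a log2 difference of -0.48 (SE 0.07, edgeR adjusted p = 0.0038). By title genotype the log2 fold change was -0.03 (SE 0.15, edgeR adjusted p = 0.998). Junb (ENSMUSG00000052837.5, chromosome 8, 84974484 to 84978718, minus strand) was at 2406, 2146, 1814 and 2164 CPM in the earlier and at 1494, 1502, 1487 and 1516 CPM in the later libraries, in the same order of codes, which is used from here on. The later libraries lay close together and the earlier ones spread widely, with no overlap. The log2 difference was -0.47 (SE 0.09, edgeR adjusted p = 0.0209), and Junb lost its call without RMN033, RMN036, RMN037 or RMN038 (adjusted p of 0.0960, 0.0799, 0.0766 and 0.0583) and without both RMN030 and RMN031 (0.139).

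Jun, which pairs with Fos and with itself, was at 1281, 1096, 1308 and 1440 CPM in the earlier and at 1000.2, 1014, 934 and 953 CPM in the later libraries. The groups did not overlap, but the difference missed the threshold (log2 -0.35, SE 0.08, edgeR adjusted p = 0.0569). The exact permutation p for this gene alone was 0.0286, the smallest that 4 libraries against 4 allow, which the lack of overlap already fixes. The run difference of Jun passed with library totals as the only scaling (adjusted p = 0.0399), with no low-count filter (0.00259), in DESeq2 (0.00686) and in limma voom (0.0347). It also passed without RMN031 (0.0161) or both RMN030 and RMN031 (0.0203). Fosb, a Fos paralog, ranged from 1365 to 1620 CPM in the earlier and from 1146 to 1341 CPM in the later libraries, also without overlap (edgeR adjusted p = 0.106). Fosl2 ranged from 222 to 288 CPM and from 189 to 223 CPM in the runs, which overlapped (edgeR adjusted p = 0.107). Fosl1 did not separate the runs at all: it was at 384 and 362 CPM in RMN030 and RMN031, at 521 and 507 CPM in RMN032 and RMN033, and at 416 to 436 CPM in the later libraries (edgeR adjusted p = 0.995 for the runs). Fosl1 shares 57.2% of its exonic bases with Ccdc85b on the other strand, and strand use in the counting is not given in the sources used here. Jund, the family member usually present without a stimulus, was at 12.2 and 12.3 CPM in RMN030 and RMN031, 4.35 and 4.01 CPM in RMN032 and RMN033, and 8.87 to 10.1 CPM in the later libraries.

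In the Nr4a family of nuclear receptors that act without a known ligand, Nr4a1 (ENSMUSG00000023034.6, chromosome 15, 101254269 to 101274795, plus strand), a gene induced by antigen receptor and stress signals, was at 1701, 1529, 1717 and 1891 CPM in the earlier and at 887, 917, 1011 and 1005 CPM in the later libraries. The lowest earlier library stood far above the highest later one. The mean was 1709 ± 148 CPM against 955 ± 62.2 CPM (SD, n = 4 each), a log2 difference of -0.80 (SE 0.07, edgeR adjusted p = 0.000142). The log2 difference of the runs was -0.84 (SE 0.10) among WT and -0.77 (SE 0.10) among KO libraries by title. In each of 17 alternative settings for all 8 libraries or fewer it stayed past the edgeR, DESeq2 or limma threshold (highest adjusted p = 0.00554). Nr4a3 was at 294, 312, 288 and 292 CPM in the earlier and 213, 216, 244 and 236 CPM in the later libraries. These do not overlap either, though the difference missed the threshold (log2 -0.34, SE 0.08, edgeR adjusted p = 0.0607) and passed with library totals only, with no low-count filter, in DESeq2 and in limma voom (adjusted p of 0.0315, 0.0379, 0.0064 and 0.0480). Nr4a2 behaved differently from both and is described with the comparison of genotype effects between runs.

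Among other nuclear factors, Atf3 was at 1514, 1374, 1569 and 1603 CPM in the earlier and at 1113, 1128, 1393 and 1364 CPM in the later libraries. RMN031 at 1374 CPM lay below RMN038 at 1393 CPM, so the runs overlapped, and in each run the KO libraries by title were the higher pair (run log2 -0.25, SE 0.08, edgeR adjusted p = 0.155). Csrnp1, a nuclear protein gene induced by AXIN1, was at 881, 881, 902 and 900 CPM against 754, 761, 772 and 765 CPM. The run took 98.4% of its sum of squares, yet the step was small (log2 -0.18, SE 0.07, edgeR adjusted p = 0.217). Myc, the growth-promoting transcription factor, was at 127, 113, 136 and 153 CPM and at 96.7, 118, 115 and 101 CPM, with overlap between the runs (log2 -0.25, SE 0.11, edgeR adjusted p = 0.334). Maff, a small Maf protein gene, ranged from 33.1 to 42.6 CPM and from 29.6 to 32.6 CPM (edgeR adjusted p = 0.538).

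Of the genes with antiproliferative or less defined immediate early products, Btg2 (ENSMUSG00000020423.6, chromosome 1, 134075170 to 134079120, minus strand), which restrains the cell cycle, was at 928, 1009, 1105 and 1102 CPM in the earlier and 711, 738, 703 and 698 CPM in the later libraries. The later 4 were close together and all lower. The log2 difference was -0.50 (SE 0.07, edgeR adjusted p = 0.00347), and its adjusted p was 0.101 once RMN032 and RMN033, where it was highest, were left out. Its paralog Btg1 ranged from 287 to 396 CPM and from 391 to 449 CPM, with a log2 difference of the opposite sign (0.32, SE 0.10, edgeR adjusted p = 0.171). Ier2, a nuclear immediate early protein gene, was at 201, 162, 212 and 251 CPM and at 166, 185, 171 and 147 CPM, with overlapping runs (log2 -0.26, SE 0.12, edgeR adjusted p = 0.415). Ier3, which modulates survival under stress, ranged from 283 to 322 CPM and from 271 to 344 CPM (log2 0.02, SE 0.09). Ier5 ranged from 30.7 to 40.5 CPM in the earlier and from 41.4 to 55.1 CPM in the later libraries, higher in all 4 of them but short of the threshold (log2 0.55, SE 0.15, edgeR adjusted p = 0.0802).

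**Figure D3:**
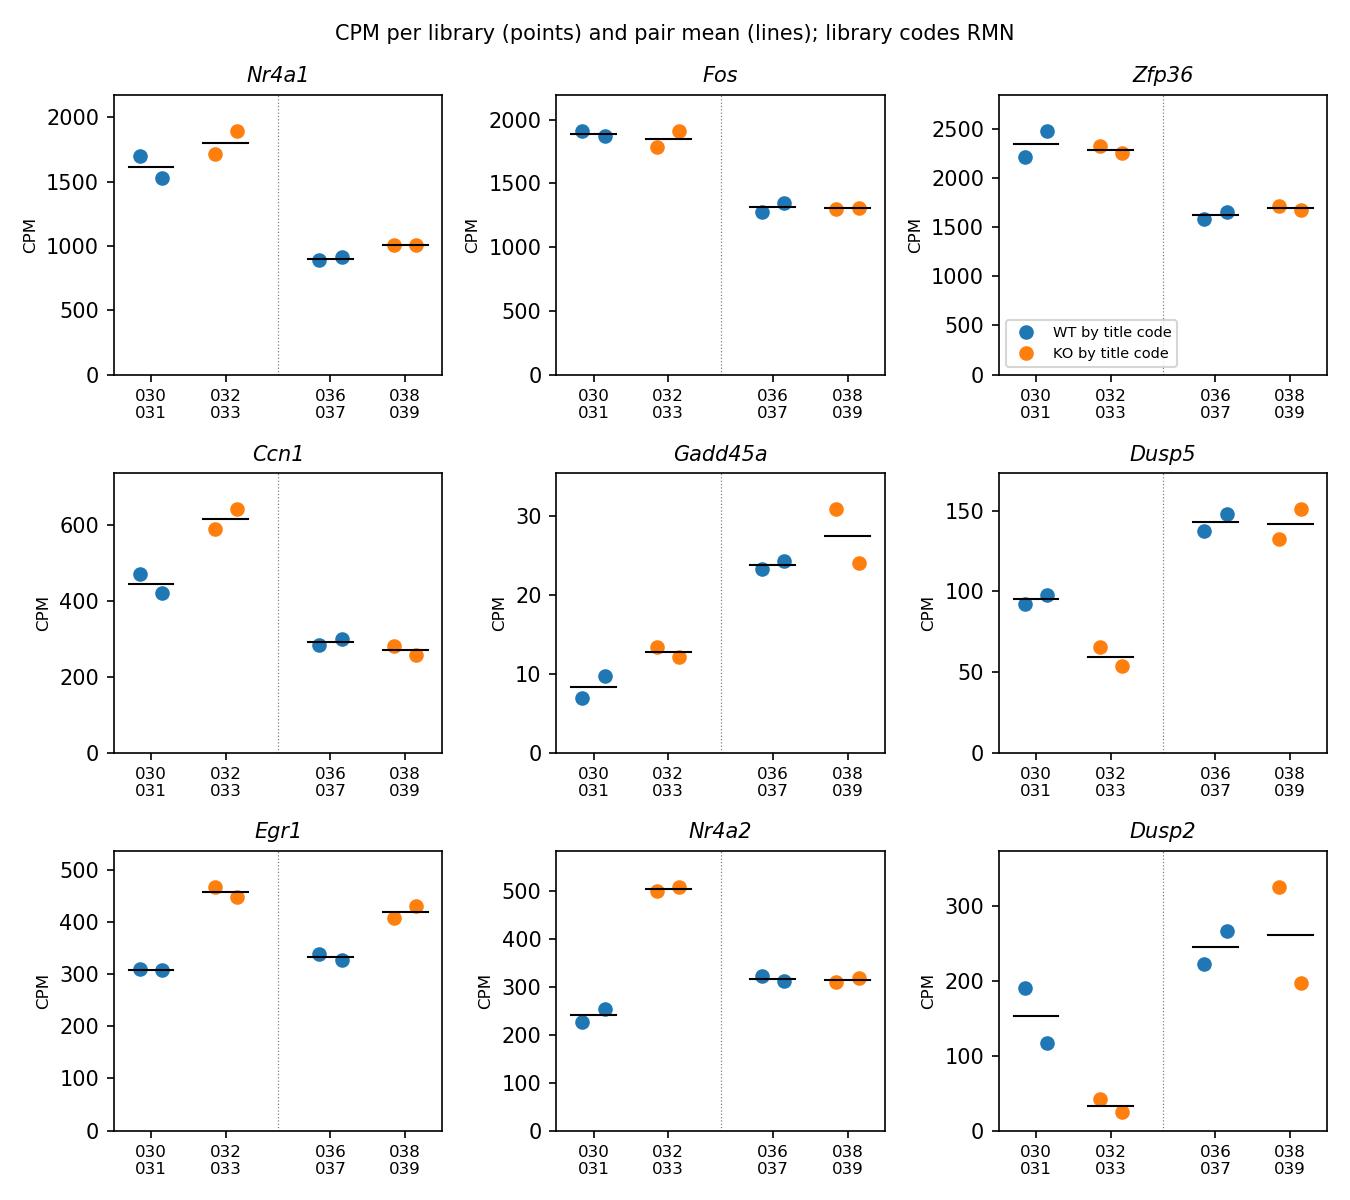
CPM of 9 genes in each library (points; blue WT and orange KO by title code) with the mean of each pair (lines); the dotted line parts earlier from later codes, and each axis starts at 0. Nr4a1, Fos, Zfp36 and Ccn1 are lower and Gadd45a and Dusp5 higher right of the line, Egr1 is higher in KO on both sides, and Nr4a2 and Dusp2 differ by title genotype on the left side.

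The genes that feed back on the response moved in both directions. Zfp36 (tristetraprolin; ENSMUSG00000044786.5, chromosome 7, 28376784 to 28380253, minus strand), whose protein destabilises cytokine messenger RNAs, was at 2218, 2473, 2326 and 2250 CPM in the earlier and 1587, 1655, 1715 and 1676 CPM in the later libraries. All later libraries were lower, with a wide gap between the runs. The mean was 2317 ± 114 CPM against 1658 ± 53.9 CPM (SD, n = 4 each), a log2 difference of -0.44 (SE 0.07, edgeR adjusted p = 0.00583). Its relatives did not pass. Zfp36l1 ranged from 247 to 353 CPM and from 216 to 264 CPM (log2 -0.28, SE 0.12, edgeR adjusted p = 0.354), and shares 55.9% of its exonic bases with Gm26669 on the other strand. Zfp36l2 ranged from 127 to 200.5 CPM and from 168 to 196 CPM (log2 0.28, SE 0.11, edgeR adjusted p = 0.275).

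Of the dual-specificity phosphatases, Dusp6 (ENSMUSG00000019960.7, chromosome 10, 99263231 to 99267489, plus strand), which acts on ERK in the cytoplasm, was at 227, 240, 307 and 259 CPM in the earlier and at 337, 424, 366 and 401 CPM in the later libraries. All 4 later libraries were higher (log2 0.61, SE 0.10, edgeR adjusted p = 0.00651), although the adjusted p was 0.113 without both RMN030 and RMN031 and 0.0503 without both RMN032 and RMN033. Dusp5 (ENSMUSG00000034765.6, chromosome 19, 53529109 to 53542431, plus strand), a nuclear ERK phosphatase gene, was at 92.4, 97.7, 65.3 and 53.8 CPM in the earlier and at 138, 148, 133 and 151 CPM in the later libraries. Within the earlier run the KO libraries by title were lowest, and the runs did not overlap (log2 0.96, SE 0.15, edgeR adjusted p = 0.00553; without RMN032 and RMN033 the log2 difference was 0.59 and the adjusted p 0.101). Dusp1, a phosphatase of p38 and JNK that is induced by glucocorticoids and stress, was at 2255, 2184, 2547 and 2685 CPM and at 2212, 2102, 1979 and 2134 CPM. RMN036 lay above RMN031, the runs overlapped, and the difference did not pass (log2 -0.16, SE 0.07, edgeR adjusted p = 0.420). Summed over Dusp1, Dusp2, Dusp5 and Dusp6 the level was 2638 to 3023 CPM in the earlier and 2802 to 2940.4 CPM in the later libraries.

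In the stress group, Gadd45a (ENSMUSG00000036390.7, chromosome 6, 67035096 to 67037457, minus strand), which arrests growth after DNA damage, was at 6.87, 9.70, 13.4 and 12.1 CPM in the earlier and at 23.3, 24.3, 30.8 and 24.0 CPM in the later libraries. The lowest later library stood well above the highest earlier one. The mean was 10.5 ± 2.88 CPM against 25.6 ± 3.51 CPM (SD, n = 4 each), a log2 difference of 1.35 (SE 0.18, edgeR adjusted p = 0.00298), and it was the gene with the largest run difference among the 9 called. Gadd45b, its relative, ranged from 234 to 251 CPM in the earlier libraries and stood at 194 and 175 CPM in RMN036 and RMN037 and at 246 and 267 CPM in RMN038 and RMN039 (log2 of the runs -0.10, SE 0.12, edgeR adjusted p = 0.798). Ppp1r15a (GADD34), which restarts translation after stress, ranged from 917 to 1175 CPM and from 855 to 968 CPM (edgeR adjusted p = 0.532). The kinase gene Sgk1, induced by serum and glucocorticoids, ranged from 54.1 to 111 CPM and from 85.3 to 98.9 CPM (edgeR adjusted p = 0.407).

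Ccn1 (Cyr61; ENSMUSG00000028195.4, chromosome 3, 145646976 to 145649981, minus strand), a secreted matrix-associated protein gene driven by serum response factor and YAP, was at 471, 420, 591 and 642 CPM in the earlier and at 283, 299, 281 and 258 CPM in the later libraries. All later libraries were lower, and the highest values were those of RMN032 and RMN033. The mean was 531 ± 103 CPM against 280.3 ± 17.0 CPM (SD, n = 4 each), a log2 difference of -0.86 (SE 0.11, edgeR adjusted p = 0.00175). Without RMN032 and RMN033 the log2 difference was -0.62 and the adjusted p 0.0534. Ccn1 is also a product of fibroblasts and endothelium, whose markers summed to 65.0 CPM or less in the earlier and 122 to 200.1 CPM in the later libraries. Keratinocyte markers summed to far more, 14725 to 18976 CPM over both runs, with 2 of 10 called lower and 2 higher in the later libraries. The part of these cells in the level of Ccn1 was not tested. The regulators of G protein signalling Rgs1 and Rgs2 dampen chemokine receptor signals. Rgs1 ranged from 2367 to 3408 CPM in the earlier and from 2089 to 2431 CPM in the later libraries (edgeR adjusted p = 0.292). Rgs2 was at 1591, 1854, 1484 and 1313 CPM in the earlier and at 1165, 1227, 1242 and 1258 CPM in the later libraries (edgeR adjusted p = 0.156).

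Taken separately in each title genotype, the run difference was called for 9 of 36 genes among WT libraries (0.725% of all genes) and for 7 of 36 among KO libraries (1.09% of all genes), with Fos, Nr4a1 and Ccn1 called in both. Among WT the 9 were Fos, Junb, Nr4a1, Nr4a3, Zfp36, Rgs2 and Ccn1, lower, and Dusp6 and Gadd45a, higher. Among KO they were Fos, Nr4a1, Nr4a2, Btg2 and Ccn1, lower, and Dusp2 and Dusp5, higher. These calls rest on 2 libraries against 2 and on the spread pooled over 8. The test of the difference between the genotypes' run effects is the interaction given further on.

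Title-code genotype was called in edgeR for 0 of the 36 genes, whether the run was left out of the model or included. In the edgeR fit of title genotype 0 of 14630 genes passed (0% of all genes), with 672 at an unadjusted p under 0.05; DESeq2 called 19 genes and limma voom 0. With the run as a covariate 0% passed again, 0 of 14630, with 900 genes at an unadjusted p under 0.05. The levels of 3 of 36 genes were higher in all 4 KO libraries by title than in all 4 WT libraries, namely Egr1, Egr2 and Sgk1, where 1.41% of all genes tested were. Jund was the 1 of 36 lower in all 4 KO libraries, where 1.53% were. The exact permutation p was 0.0286 for each of these 4 genes, the smallest that 4 libraries against 4 allow. Any gene whose groups do not overlap gets this p, so it adds nothing to the lack of overlap by which they were picked.

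Egr1 (ENSMUSG00000038418.7), a zinc finger transcription factor gene that is among the first to respond to ERK signals, was at 310, 308, 467 and 449 CPM in the earlier and at 339, 327, 408 and 432 CPM in the later libraries. The 4 title KO libraries were RMN032, RMN033, RMN038 and RMN039, and each held more than any of the 4 title WT libraries. The mean was 321 ± 14.7 CPM in WT and 439 ± 25.0 CPM in KO by title (SD, n = 4 each), and title genotype took 92.4% of its sum of squares while the run took 0.0337%. The log2 fold change was 0.44 (SE 0.08, edgeR adjusted p = 0.362), the third smallest p of 14630 genes, and 0.45 (SE 0.08, edgeR adjusted p = 0.122) with the run as a covariate. DESeq2 was the only alternative in which it passed (adjusted p = 0.000185). Within the runs, fitted together, the log2 fold change was 0.52 (SE 0.09, edgeR adjusted p = 0.0841) in the earlier and 0.36 (SE 0.09, edgeR adjusted p = 0.361) in the later libraries. By description code it was 384 ± 86.3 CPM in WT and 377 ± 51.5 CPM in KO (edgeR adjusted p = 0.977).

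Egr2, which acts in the same family and limits lymphocyte activation, was at 25.6, 39.2, 49.8 and 45.9 CPM in the earlier and at 43.6, 41.6, 59.2 and 46.3 CPM in the later libraries. The lowest title KO library, at 45.9 CPM, lay just above the highest title WT library, at 43.6 CPM (log2 0.42, SE 0.17, edgeR adjusted p = 0.998). Egr3 was low throughout, at 2.35 to 5.69 CPM, and 71.9% of its sum of squares lay within the pairs. Sgk1 was at 54.1, 65.3, 85.3 and 87.1 CPM in the title WT libraries and at 111, 90.7, 98.9 and 93.7 CPM in the title KO libraries. Its log2 fold change was 0.43 (SE 0.15, edgeR adjusted p = 0.998). Jund had a log2 fold change of -0.75 (SE 0.31, edgeR adjusted p = 0.998), which came from RMN032 and RMN033, since in the later run its 4 libraries lay between 8.87 and 10.1 CPM. T cell transcripts, high in RMN030 and RMN031, move with title genotype within the earlier run, and their part in these values was not tested.

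**Figure D4:**
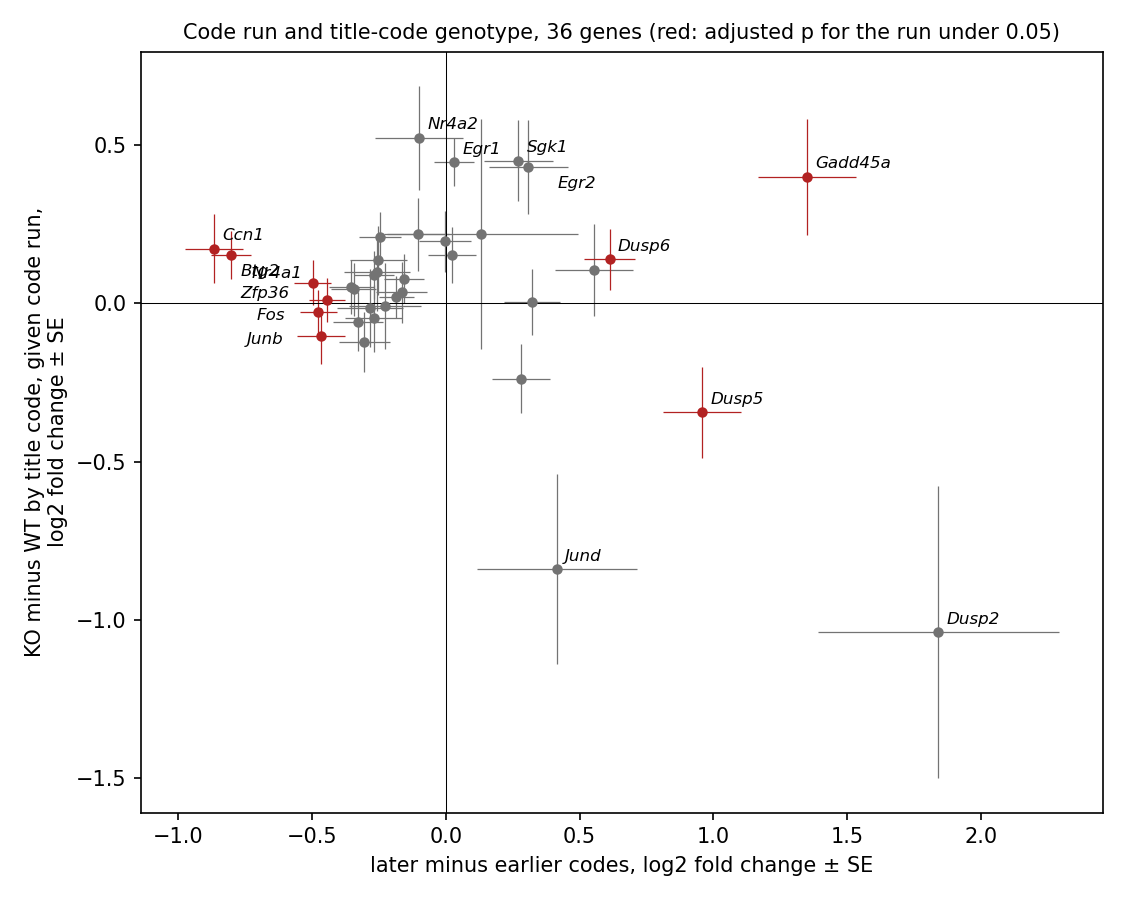
Log2 fold change of the 36 genes by title-code genotype with the run as a covariate (vertical axis) against the difference between later and earlier codes (horizontal axis), each ± SE from edgeR; red points passed the threshold for the run. The called genes spread along the horizontal axis from Ccn1 at -0.86 to Gadd45a at 1.35, and Egr1 lies at 0.45 on the vertical axis with almost no run difference.

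The difference of the title genotype effect between the runs had its smallest adjusted p among the 36 genes for Nr4a2 and Dusp2, and 0 of 36 passed the test of that difference. The edgeR fit with the product of run and genotype called 0.0186% of all genes, with 1281 at an unadjusted p under 0.05; DESeq2 called 2 of the 36 and limma voom 1. Within the earlier run 2 of 36 genes were called, Nr4a2 higher and Dusp2 lower in title KO (0.186% of all genes), and within the later run 0 of 36 (0% of all genes; 1264 genes at an unadjusted p under 0.05). Nr4a2 (ENSMUSG00000026826.12, chromosome 2, 57106830 to 57124003, minus strand) was at 227 and 254 CPM in RMN030 and RMN031, at 500 and 508 CPM in RMN032 and RMN033, and at 322, 313, 311 and 319 CPM in the later libraries. Only RMN032 and RMN033 stood apart upward, and the later 4 lay between the earlier pairs. Its log2 fold change was 1.02 (SE 0.10, edgeR adjusted p = 0.00255) in the earlier run and 0.01 (SE 0.09, edgeR adjusted p = 0.993) in the later run, a difference of -1.01 (SE 0.13, edgeR adjusted p = 0.0556). That difference passed with library totals only (adjusted p = 0.0437), with no low-count filter (4.04e-05), in DESeq2 (2.24e-08) and in limma voom (0.0292), and its adjusted p reached 0.219 among the other alternatives. The run difference of Nr4a2 (log2 -0.10, SE 0.16, edgeR adjusted p = 0.878) was -0.61 (adjusted p = 0.00795) without RMN030 and RMN031 and turned to 0.40 (adjusted p = 0.171) without RMN032 and RMN033. Jund had a wider difference between the runs' genotype effects than Nr4a2 but a less precise one, with log2 fold changes of -1.60 (SE 0.29) in the earlier and -0.10 (SE 0.28) in the later run, a difference of 1.49 (SE 0.40, edgeR adjusted p = 0.363).

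Dusp2 (PAC-1; ENSMUSG00000027368.6, chromosome 2, 127336159 to 127338376, plus strand), a nuclear MAP kinase phosphatase gene of activated haematopoietic cells, was at 190 and 116 CPM in RMN030 and RMN031, at 41.5 and 24.7 CPM in RMN032 and RMN033, and at 222, 266, 324 and 196 CPM in the later libraries. It had the widest range of the 36 genes, with the highest library at 13.1 times the lowest. Its log2 fold change by title was -2.26 (SE 0.31, edgeR adjusted p = 0.0309) in the earlier run and 0.12 (SE 0.29, edgeR adjusted p = 0.964) in the later run. The difference of 2.38 (SE 0.43, edgeR adjusted p = 0.166) passed with no low-count filter (7.96e-24) and in DESeq2 (adjusted p = 0.0361), and its adjusted p reached 0.387 among the other alternatives. All 4 later libraries were above all 4 earlier ones, a run difference of 1.84 (SE 0.45, edgeR adjusted p = 0.0670). It passed with no low-count filter (2.79e-46), in DESeq2 (adjusted p = 0.0280), and without RMN030 (0.0232) or RMN036 (0.0480). With no filter the SE was 0.12 instead of 0.45 for the run difference, and 0.21 instead of 0.43 for the difference between genotype effects. The counts of Dusp2 were the same, so the very small p-values there come from a smaller fitted spread and not from closer libraries. Without RMN030 and RMN031 the run difference of Dusp2 was 3.05 (edgeR adjusted p = 0.00141), and without RMN032 and RMN033 it was 0.67 (edgeR adjusted p = 0.406). Fitted alone, the earlier run gave the same 2 calls (edgeR adjusted p = 0.00529 for Nr4a2 and 0.00666 for Dusp2). RMN030 and RMN031 are also the libraries with T cell transcripts, and Dusp2 is also expressed in T cells, whose part in its level was not tested.

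In the 4 undisputed libraries, 2 WT and 2 KO, 3 of 36 genes passed, where 0.794% of all genes did. Nr4a1 was lower in KO (log2 -0.64, SE 0.13, edgeR adjusted p = 0.0487), and Dusp6 (log2 0.76, SE 0.13, edgeR adjusted p = 0.0257) and Gadd45a (log2 1.77, SE 0.30, edgeR adjusted p = 0.0230) were higher. With library totals as the only scaling the split was 2 lower and 2 higher instead of 1 and 2, since Ccn1 passed as well. Nr4a1 did not pass without RMN038 or RMN039 (adjusted p of 0.214 and 0.186), nor Dusp6 without RMN039 (0.111). Leaving 1 of these 4 libraries out sets 1 library against 2, so that the spread comes from the remaining pair alone and the lone library is assumed to vary like it. Counts of members called on that footing are listed only with the processing alternatives at the end, and nothing is concluded from them. Egr1 had a log2 fold change of 0.49 (SE 0.13, edgeR adjusted p = 0.149). The comparison shares all its libraries with the comparison of runs, and genotype and run cannot be told apart in it. Its WT libraries, RMN030 and RMN031, are also those with T cell transcripts. In it 11 of 15 T cell markers were called lower in KO and 5 of 5 red blood cell markers higher, against 0.346% and 0.448% of all genes. Their part in these values was not tested.

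The genes that lead into or accompany this response were taken from lists and are given as counts. Of 29 genes of the inducing pathway (kinases and constitutive factors) 0 differed between the runs in edgeR and 0 by title. Among all genes tested 0.694% were called lower and 1.4% higher for the run, and 0% by title. With shares that small, 0 of 29 does not set this list apart from other genes. Serum response factor itself, Srf, ranged from 20.2 to 27.9 CPM over the 8 libraries (run log2 0.06, SE 0.15). The ternary complex factor gene Elk1 ranged from 9.59 to 19.5 CPM (run log2 -0.05, SE 0.22), and Creb1 from 69.7 to 104 CPM (run log2 -0.08, SE 0.13). Their messenger level is no measure of their activity. Of 13 bZIP partner genes tested 0 passed for the run or by title, which the same small shares of all genes do not set apart either.

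Of 38 other immediate and delayed early genes tested, 1 was lower and 3 higher in the later libraries, where 0.694% and 1.4% of all genes tested were, and 0 passed by title. Spry1, an inhibitor of receptor tyrosine kinase signalling, was lower (19.5 to 30.3 CPM against 34.5 to 53.3 CPM; log2 -0.88, SE 0.18, edgeR adjusted p = 0.0286). The GTPase gene Rhob (21.1 to 30.7 CPM against 11.5 to 13.2 CPM; log2 1.12, SE 0.17, edgeR adjusted p = 0.00553), Phlda1 (log2 0.69, SE 0.15, edgeR adjusted p = 0.0417) and the growth factor gene Hbegf (log2 0.62, SE 0.14, edgeR adjusted p = 0.0433) were higher. Klf4 was at 42.6 to 62.0 CPM in the earlier and 38.9 to 52.3 CPM in the later libraries (log2 -0.12, SE 0.14). The stress kinase gene Plk3 was called by title within the earlier run, as 1 of 38 lower in KO (log2 -1.31, SE 0.21, edgeR adjusted p = 0.0457): it was at 169 and 148 CPM in RMN030 and RMN031, at 84.0 and 48.7 CPM in RMN032 and RMN033 and at 176 to 188 CPM in the later libraries, an order of libraries like that of Dusp2.

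Of 13 heat shock genes tested, which digestion is also known to induce, 2 were higher and 0 lower in the later libraries, where 1.4% of all genes tested were called higher and 0.694% lower. The difference was above 0 for 12 of 13, with a median log2 difference of 0.18 against -0.01 over all genes. Hspb1, a small heat shock protein gene, was the 1 below 0, at 163 to 243 CPM in the earlier and 118 to 175 CPM in the later libraries (log2 -0.41, SE 0.12, edgeR adjusted p = 0.138). Hspa1a was at 609 to 706 CPM in the earlier and 1311 to 1513 CPM in the later libraries (log2 1.16, SE 0.09, edgeR adjusted p = 2.48e-05). Hspa1b, a near-identical copy with which it can share reads, was also higher (log2 1.14, SE 0.09, edgeR adjusted p = 3.74e-05). The constitutive chaperone gene Hspa8 was at 3657 to 3984 CPM and at 3767 to 4014 CPM (log2 0.10, SE 0.07, edgeR adjusted p = 0.634). By title 0 of 13 passed.

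**Figure D5:**
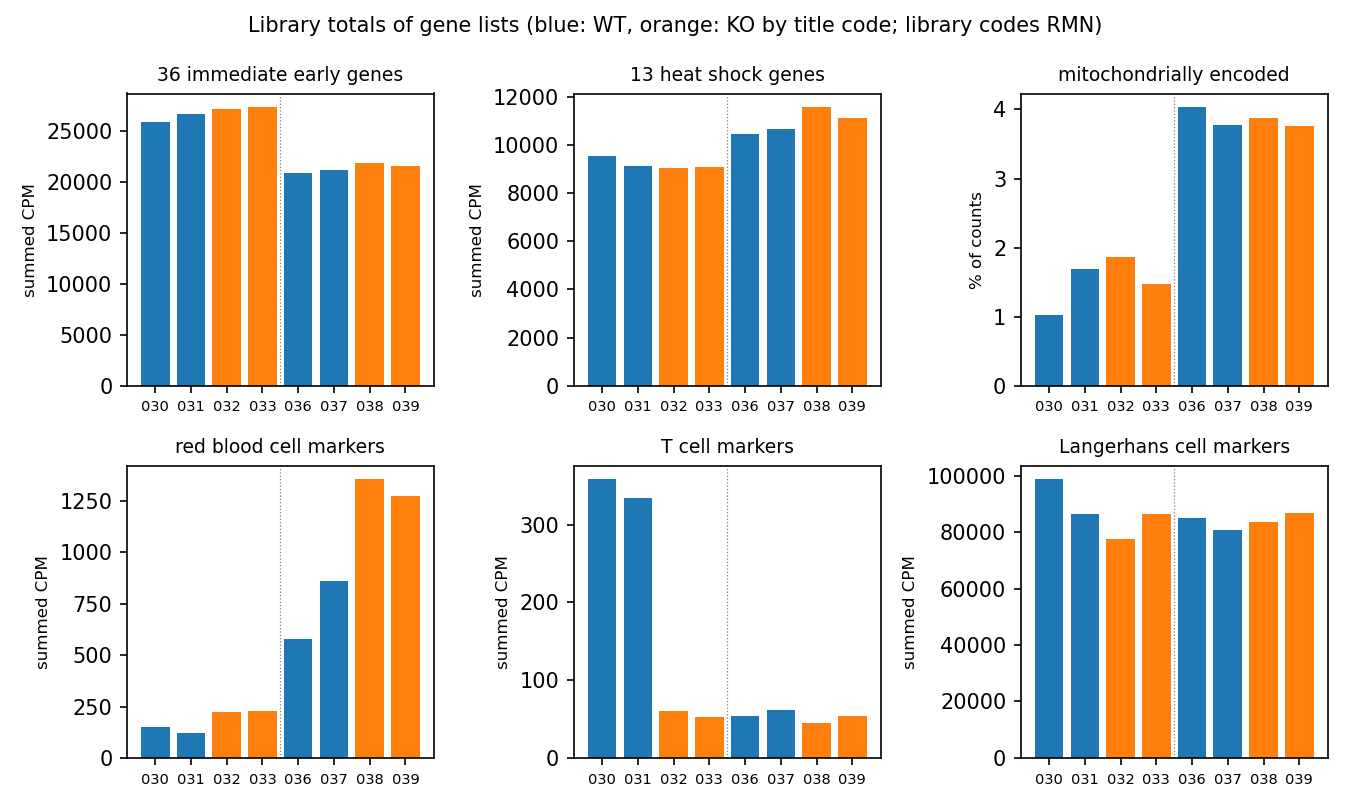
Totals per library for the 36 immediate early genes, 13 heat shock genes, mitochondrially encoded genes (% of counts), and markers of red blood cells, T cells and Langerhans cells; bars are blue for WT and orange for KO by title code, the dotted line parts earlier from later codes, and the axes start at 0. The immediate early total is lower and the heat shock, mitochondrial and red blood cell totals higher right of the line, and T cell markers are high in RMN030 and RMN031.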

How the data were processed

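Total RNA libraries of sorted Langerhans cells were sequenced by the submitters, 8 libraries in all. The deposited table holds raw read counts per gene, which the authors made with STAR 2.5.2b and featureCounts 1.5.0 on GRCm38 (mm10), per the submitters' processing notes. Whether the counting used strand is not given in the sources used here. Of 25247 gene identifiers 25080 were matched to symbols through the GENCODE annotation, and 0 columns of the table were left unused. Library totals of 11051402 to 18966195 counts set the precision. The members and all companion lists (inducing pathway, other early genes, bZIP partners, heat shock genes, cell type markers) were chosen with earlier results of these data known, and support nothing on their own. All 36 members are named: those past the threshold in a fit, and Fos, Jun, Egr1, Egr2, Nr4a1, Atf3, Dusp1, Zfp36, Ier2 and Myc whatever their result, with every library's value, the others mostly by range. Companion lists are given by counts, the called genes with the smallest p, and Srf, Elk1, Creb1, Hspa1a, Hspa8 and Klf4 whatever their result.

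CPM, TPM and sums of squares of log2(CPM + 0.5) were computed from the counts. Tests ran over all genes that passed the count filter of edgeR 4.0.16 (R 4.3.3) with TMM scaling, the robust quasi-likelihood test, Benjamini-Hochberg adjustment and a threshold of 0.05. The SE of a log2 fold change is its size divided by the square root of the F statistic. The models fitted were: undisputed libraries, title genotype, description genotype, run with title genotype as a covariate, and the product of run and title genotype, from which effects within a run or a genotype were taken. Exact permutation tests were two-sided. The fits were tested on simulated data. Alternatives were RLE size factors, library totals only, no low-count filter, no mitochondrial genes, DESeq2 1.42.0, limma 3.58.1 (voom), a replicate block, the run as a covariate, and libraries left out singly or in pairs. Every pair of libraries differed by more than the sampling noise of independent counts (lowest chi-square per gene 12.3). Of counts from 1 to 20, 60.1% were even, so each count may not be an independent read. The reason was not tested.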

Additional observations from a re-analysis of the deposited data

Results flagged for a closer look

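Within groups of 4 libraries, 3 values stood far from the other libraries of their group, out of 144 groups of a gene examined, where chance gives about 1 in 20 (7.2 groups). Fosl2, an AP-1 gene, was at 287.9 CPM in RMN031 against 213 to 223 CPM in the other WT libraries by title. Rgs1, a regulator of G protein signalling, was at 3408 CPM in RMN031 against 2227 to 2367 CPM in the same group. RMN031 is also a library with T cell transcripts, whose part in these values was not tested, and RMN030, which had them too, was not set apart. Gadd45a, the growth arrest gene, was at 30.8 CPM in RMN038 against 23.3 to 24.3 CPM in the other KO libraries by description.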

How the results depend on the processing

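Counts of members called kept within 1.5 times their value under the settings not named here. For the run, 9 members became 17 with no low-count filter and 15 in DESeq2, each holding the same 9 (9 shared), and 5, all shared, without RMN032 and RMN033, a setting chosen after seeing the data; leaving out 1 library gave 8 to 11. By description the count of 9 became 8 to 11. Without RMN030 and RMN031 both counts were 10, of which 7 were shared with the 9. In the undisputed libraries 3 became 9 with no low-count filter, 11 in DESeq2, 6 in limma voom and 2 to 18 when 1 library was left out (18 without RMN031, 12 without RMN030), which sets 1 library against 2 with the spread taken from that pair. By title 0 became 1 in DESeq2 (Egr1) and stayed at 0 when 1 library was left out. The product of run and genotype went from 0 to 1 with library totals only, 2 with no low-count filter, 2 in DESeq2 and 1 in limma voom (0 to 0 when 1 library was left out). Leaving out blood and mitochondrial genes, also chosen after seeing the data, left the run count at 9. With a replicate block the counts were 0 by title and 9 by description. The numbers do not pair the libraries, since same-numbered deviations correlated at -0.0023 to 0.184 by title and -0.0156 to 0.0486 by description and not every library correlated best with its own number. Of 1460 alternatives for 20 single members, 1369 left the call as it was, 70 gained and 21 lost it, and 0 turned the sign of a called value. In 40 of those left as they were, over 16 gene and fit pairs, the sign turned while neither value passed (smallest adjusted p of the reported value 0.826). Junb lost its call by description without RMN033, RMN036, RMN037, RMN038 or RMN039 (adjusted p of 0.0572 to 0.0659 by edgeR), Dusp5 just missed it without RMN032, and Junb and Dusp6 without RMN030 and RMN031 (0.0736 and 0.0708). The causes were not tested. Egr3, with as few as 26 counts, is limited by depth.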
